A study of Mus musculus with 32 samples.

Results

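The comparison concerns the cortex of C57BL/6 mouse embryos at E15.5 (embryonic day), and sets Kat6b-/- knockout (KO) tissue beside wild-type (WT) tissue. Its members are 10 of the 32 libraries of the study, 5 KO and 5 WT, chosen by the group in the labels. The other 22 libraries are 6 from E12.5 dorsal telencephalon of the same C57BL/6 line (3 KO, 3 WT) and 16 from a Kat6b transgene and its controls on a mixed FVBxBALB/c background, of which the E12.5 C57BL/6 libraries share the main fit and the FVBxBALB/c libraries enter only the fit of all 32. Each library came from 1 embryo, untreated as far as the labels say. Each of 5 litters gave 1 KO and 1 WT embryo, so KO 1 to KO 5 and WT 1 to WT 5 carry the number of the litter, and littermates share a number. The knockout is labelled as such in the whole embryo, with no Cre line named, and the deleted part of the gene is not given in the labels.

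KAT6B, also called MYST4 or Querkopf, is a MYST-family enzyme that adds acetyl groups to histone lysines, as the catalytic subunit of a complex with BRPF scaffold proteins, ING5 and MEAF6. In mice it is known for a role in cortical development and in adult neurogenesis, and variants of the human gene cause disorders with intellectual disability. At E15.5 apical radial glia in the ventricular zone divide and give rise, through intermediate progenitors, to neurons of the upper cortical layers, while Cajal-Retzius cells and meninges cover the surface.

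Total counts per library were 14920689 to 43362924 in KO and 11182987 to 38566194 in WT. All 10 libraries had more counts from Y-linked genes than from Xist, as male tissue does. Both libraries of litter 5 carry a column header that names E12, and KO 5 is labelled dorsal telencephalon, yet on the first principal component of the 16 C57BL/6 libraries (72.6% of the variance) KO 5 and WT 5 lay at 41.7 and 41.3, where the E12.5 libraries ran from -78.9 to -43.1. Markers of the cortex were present in every library: Neurod6, of cortical projection neurons, ran from 521 to 883 CPM (counts scaled to the library size) in KO and from 610 to 914 CPM in WT, and the cortical homeobox gene Emx1 from 37.7 to 59.5 CPM in KO and from 49.4 to 80.6 CPM in WT. KO 3 and KO 4 stood apart, at 41.4 and 31.3 on the first component of the 10 libraries (40.0%), against -27.1 to 18.5 for the other 8, and ribosomal RNA took 19.1% of the counts of KO 3 and at most 0.529% of those of the other 9. Values without KO 3 and KO 4 are therefore given beside the results.

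Kat6b itself did not tell the genotypes apart. In KO it stood at 193, 183, 171, 157 and 187 CPM in litters 1 to 5, and in WT at 189, 174, 153, 194 and 159 CPM. The groups overlapped, with a ratio of KO to WT of 1.03 and a log2 fold change of 0.04 (95% interval -0.19 to 0.27, adjusted p = 1 by edgeR's quasi-likelihood test). Kat6b (Entrez 54169) lies on mm10 chromosome 14, 21499216 to 21672478. Counts are summed over the gene, so this level does not check the labelled genotype: a transcript that lacks one part is still counted. Of the 14 tested genes for MYST enzymes and their partners, 10 lay below WT and 4 above (median log2 fold change -0.02). The KAT6-complex scaffold genes Brd1 (-0.11, SE 0.0565) and Brpf1 (-0.11, SE 0.0592) had the smallest p among them, and neither passed. Without KO 3 and KO 4, 6 of the 14 genes lay below WT and 8 above (median 0.006).

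The question was which genes differ between cortex labelled Kat6b knockout and WT cortex. With a mean for each of the 4 C57BL/6 groups, edgeR called 0 of 16118 genes (0%) at an adjusted p under 0.05, and limma-voom called 0. DESeq2 called 7, among them Nr2e1, Otx1, Sesn2 and A930004D18Rik, which were lower in KO, and Cdhr1 and Tfap2e, which were higher. At an unadjusted p under 0.05 edgeR had 192 lower genes (1.19%) and 264 higher genes (1.64%), 456 in all (2.83%). Across all tested genes 7573 lay below WT (47.0%) and 8544 above, with a median log2 fold change of 0.0077. All 5 KO libraries lay below all 5 WT libraries for 77 genes (0.478%) and above them for 55 (0.341%). Counted by litter, 497 genes (3.08%) were lower and 595 (3.69%) higher in KO than in the WT littermate in 5 of 5 litters. The genes described below lead the ranking by p, and in the fit of the 16 libraries each falls short of the threshold.

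Transcription factor genes known from cortical progenitors (Nr2e1, Otx1, Sox21, Pou3f3 and Lhx2) stood among the 12 lower genes with the smallest p, Nr2e1 first. Nr2e1, also called Tlx, encodes an orphan nuclear receptor that keeps neural stem cells dividing. It stood at 68.7, 70.2, 60.0, 61.9 and 73.5 CPM in KO litters 1 to 5, against 85.9, 93.9, 83.5, 97.3 and 103 CPM in WT. The highest KO library was thus below the lowest WT library, and each KO embryo was below its littermate. The means were 66.9 ± 5.69 CPM in KO and 92.8 ± 8.16 CPM in WT (SD, n = 5 each), a ratio of 0.721. On the log2 scale the difference was -0.47 (SE 0.0807, 95% interval -0.64 to -0.30, adjusted p = 0.315 by edgeR) and -0.39 without KO 3 and KO 4. With litter as a block in the same fit, Nr2e1 passed at the same fold change (adjusted p = 0.0302), and it was the 1 gene called there. It also passed in a fit of the 10 E15.5 libraries alone (adjusted p = 0.0375 by edgeR), alone with the litter block (0.0460), and in a fit of all 32 libraries (0.0339). The FVBxBALB/c libraries in the last of these fits come from another background and another sequencing batch. With any 1 of the 10 libraries left out of the 16-library fit without the block, Nr2e1 did not pass (adjusted p = 0.221 to 1 by edgeR), as it did not with all of them. Leaving out 1 library at a time was not run for the fits that called Nr2e1, so these values do not check those calls.

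The gene (Entrez 21907) lies on mm10 chromosome 10, 42561963 to 42583590, on the minus strand. Its promoter from RefSeq, 250 bases before to 50 after the start on GRCm38.p6 at chr10:42583541-42583840 (minus strand), is shown because Nr2e1 leads the ranking and SOX factor genes, described below, lay below WT with it. The capitals mark ACAAAG, a core that SOX proteins are known to bind.
Nr2e1 promoter: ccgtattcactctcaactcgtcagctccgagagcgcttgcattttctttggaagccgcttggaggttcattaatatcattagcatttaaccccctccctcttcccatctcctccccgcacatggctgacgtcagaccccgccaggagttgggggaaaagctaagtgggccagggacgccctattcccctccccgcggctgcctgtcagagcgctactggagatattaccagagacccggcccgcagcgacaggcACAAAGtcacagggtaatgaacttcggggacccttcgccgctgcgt
ACAAAG occurs 1 time in this window, and ACAATG, the other SOX core searched, does not. Read on both strands, 13.7% of 12213 promoters of the same length hold ACAAAG and 7.26% hold ACAATG. The window has 19 CG pairs, where the median promoter has 20. A match of letters describes the window and does not show a binding site.

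Otx1 came next. It encodes a homeodomain factor of cortical progenitors, later found in deep-layer neurons. It stood at 21.1, 20.1, 19.2, 19.8 and 20.6 CPM in KO, a narrow band, against 24.6, 31.2, 31.7, 33.3 and 28.7 CPM in WT. The groups did not overlap, and the gap was smallest in litter 1. The mean was 20.1 ± 0.724 CPM in KO and 29.9 ± 3.39 CPM in WT (SD, n = 5 each), and the log2 fold change was -0.57 (SE 0.109, adjusted p = 0.356 by edgeR), or -0.54 without KO 3 and KO 4. It passed in the fit of the 10 libraries alone (adjusted p = 0.0375 by edgeR), where 2 genes were called, Nr2e1 and Otx1. With the litter block Otx1 did not pass, at an adjusted p of 0.115 in the 10-library fit and 0.0707 in the 16-library fit. Otx1 (Entrez 18423) lies on chromosome 11, 21994764 to 22001651.

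Sox21, which encodes a SOXB2 factor of progenitors, had 48.4, 46.8, 43.8, 38.4 and 51.2 CPM in KO and 63.1, 60.4, 54.6, 61.8 and 65.2 CPM in WT. Pou3f3, or Brn1, a POU factor that acts in the making of upper-layer neurons, had 318, 283, 239, 231 and 298 CPM in KO and 376, 340, 333, 374 and 371 CPM in WT. For both genes all KO libraries lay below all WT libraries, and KO 4 was the lowest of the 10. Their log2 fold changes were -0.42 (SE 0.0975) for Sox21 and -0.39 (SE 0.0980) for Pou3f3, or -0.32 and -0.26 without KO 3 and KO 4, with an adjusted p of 1 by edgeR. Lhx2, the LIM homeobox selector of cortical identity, had 267, 287, 232, 224 and 275 CPM in KO and 312, 286, 352, 359 and 391 CPM in WT. Here the littermates of litter 2 were level, and the log2 fold change was -0.40 (SE 0.116) or -0.30 without KO 3 and KO 4. Pax6, the paired-box regulator of radial glia, showed a smaller difference: 66.9 to 78.1 CPM in KO and 79.3 to 85.6 CPM in WT, which did not overlap (-0.21, SE 0.0686).

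**Figure D1:**
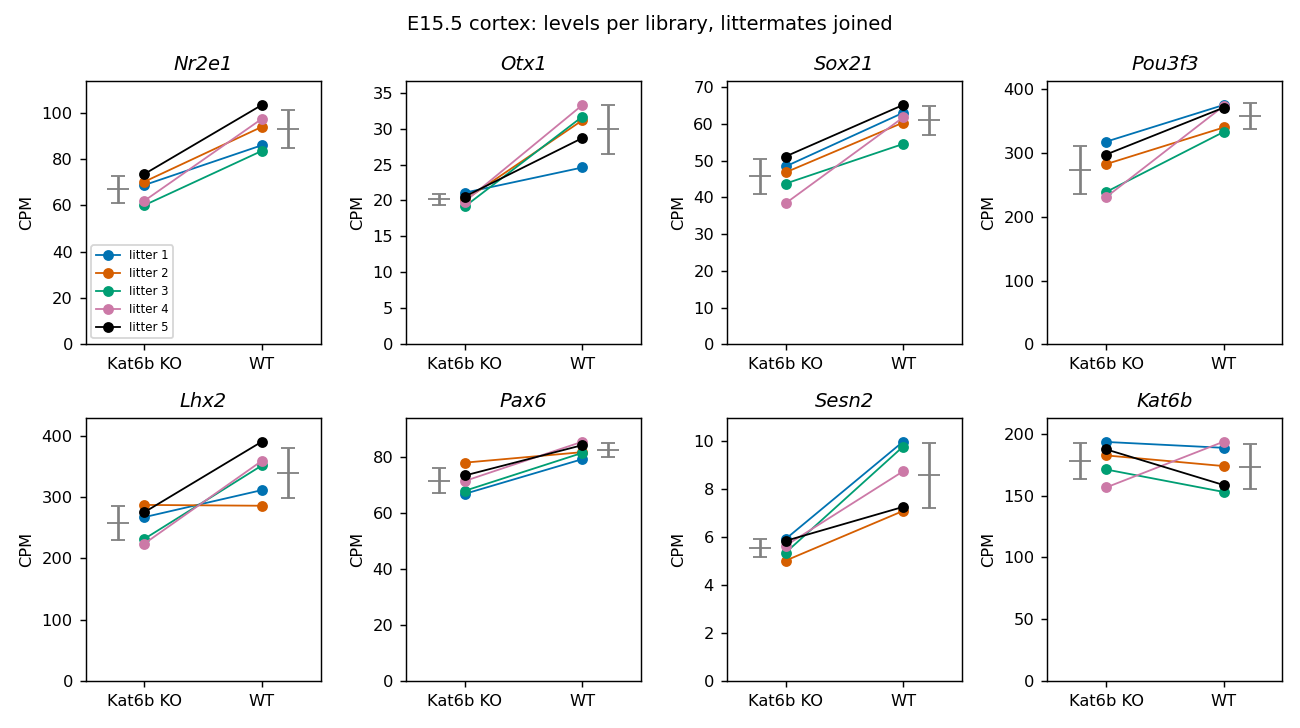
CPM of 8 genes in each library of E15.5 cortex, KO on the left and WT on the right of each panel; a line joins littermates, and grey bars give the mean ± SD of 5 libraries. Nr2e1, Otx1, Sox21, Pou3f3, Pax6 and Sesn2 have every KO point below every WT point, Lhx2 has littermates level in litter 2, and Kat6b overlaps.

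Sesn2 was the third lower gene. It encodes a sestrin that restrains mTORC1 and is induced by ATF4 and by p53. It stood at 5.92, 5.02, 5.35, 5.64 and 5.84 CPM in KO and 9.98, 7.09, 9.78, 8.74 and 7.26 CPM in WT, without overlap. The log2 fold change was -0.61 (SE 0.120, adjusted p = 0.356 by edgeR) and -0.60 without KO 3 and KO 4. Of 25 ATF4 targets, Sesn2 among them, 22 lay below WT, with a median of -0.08, and 0 passed. The stress factor gene Cebpb (-0.50, SE 0.199) had the next smallest p, at 1.09 to 1.78 CPM in KO and 1.49 to 2.34 CPM in WT. Without KO 3 and KO 4, 18 of the 25 targets lay below WT (median -0.08). Within litters 1 to 5 their median difference was -0.02, 0.05, -0.32, -0.20 and -0.12. Among 21 genes for CDK inhibitors and p53 targets, 14 lay below WT (median -0.04). Sesn2 belongs to that list too, and Cdkn1b, the p27 inhibitor of the cell cycle, was at -0.20 (SE 0.0703) and at -0.10 without KO 3 and KO 4.

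The remaining lower genes among the first 12 were A930004D18Rik (-0.45, SE 0.0897), 5730559C18Rik (-0.35, SE 0.0924), Sall4 (-1.12, SE 0.317), Gm5946 (-0.61, SE 0.176), Apobec1 (-0.75, SE 0.221) and Jun (-0.21, SE 0.0634). Sall4, a spalt zinc-finger gene known from pluripotent cells, was scarce, at 0.214 to 0.607 CPM in KO and 0.585 to 1.81 CPM in WT. Apobec1, a cytidine deaminase that edits RNA, had its highest value in WT 5 at 6.14 CPM, and its log2 fold change was -0.53 without that library. Jun, a subunit of the AP-1 factor, differed little, with 85.9 to 95.5 CPM in KO and 96.5 to 111 CPM in WT. Genes on the opposite strand overlap A930004D18Rik, Sox21, Sall4, Lhx2 and Jun, as they do Lgi4, Synpr, Cntn3, Mybpc1, Abca8b and Popdc3 below. Whether reads were counted by strand is not given in the sources used here, so their reads cannot be told from those of the partner; no gene overlaps Nr2e1, Otx1 or Cdhr1 on the opposite strand.

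SOX factors, the HMG-box family that keeps progenitors or directs neuronal and glial fate, lay mostly below WT. Of 18 tested members 16 lay below WT and 2 above, with a median log2 fold change of -0.19, against 0.0077 over all genes, and 0 were called. Without KO 3 and KO 4 all 18 lay below WT, with the same median of -0.19. Within litters 1 to 5 the median difference of the members was -0.16, -0.24, -0.14, -0.20 and -0.13, below 0 in each. Sox1, a stem cell factor of the SOXB1 group, stood at 162, 127, 138, 137 and 151 CPM in KO and 179, 176, 159, 163 and 170 CPM in WT (-0.24, SE 0.0863), and KO 1 at 162 CPM fell among the WT values. The members above WT were Sox7 (0.28) and Sox17 (0.09), which mark endothelium. All KO libraries lay below all WT libraries for 1 member, Sox21 (0.478% over all genes), and 4 members lay below WT at an unadjusted p under 0.05 (1.19% over all genes). This list was known from earlier results to lie below WT and is no independent evidence. The 15 nuclear receptor genes had 11 below WT (median -0.08, or -0.14 without KO 3 and KO 4), with Nr4a2, an orphan receptor of subplate neurons, at -0.19 (SE 0.0784).

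**Figure D2:**
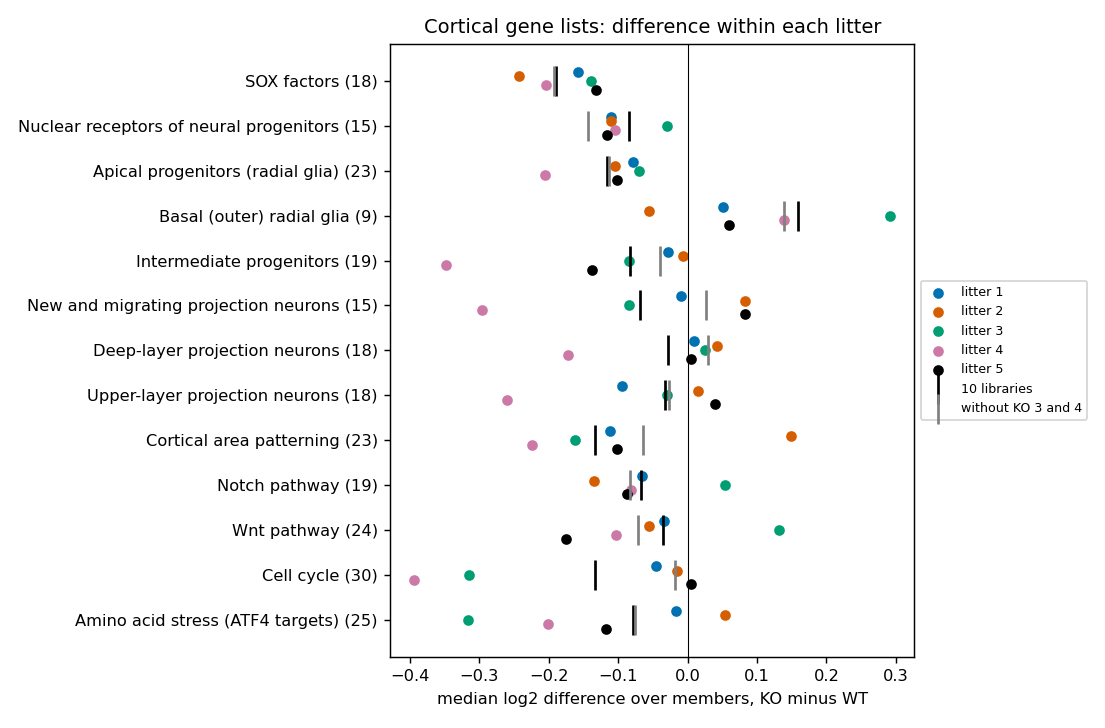
Median log2 difference, KO minus WT, over the tested members of 13 gene lists (number of members in brackets); coloured points are the 5 litters, black bars the fit of all libraries and grey bars the fit without KO 3 and KO 4. SOX factors, nuclear receptors and apical progenitor genes lie below 0 in all 5 litters. Intermediate progenitor genes do too, but at -0.03 and -0.007 in litters 1 and 2 and at -0.35 in litter 4. Cell cycle genes lie at -0.31 and -0.39 in litters 3 and 4 and between -0.05 and 0.004 in the other 3.

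From progenitor to neuron, the list medians ran from -0.12 for apical radial glia to -0.03 for the layer genes, and differences between lists were not tested. Of 23 apical radial glia genes 17 lay below WT (median -0.12, or -0.11 without KO 3 and KO 4), with litter medians of -0.21 to -0.07. Otx1, Lhx2, Pax6 and Hes1, the Notch effector, were among them, Hes1 at 20.3 to 24.4 CPM in KO and 24.4 to 28.8 CPM in WT (-0.28, SE 0.0978). The structural radial glia genes were near WT: Nes, an intermediate filament gene, was at 0.003, Vim at -0.05 and Fabp7, a lipid-binding protein gene, at 0.09. Basal radial glia genes went the other way, with 8 of 9 above WT (median 0.16), and without KO 3 and KO 4 5 of 9 did, with a median of 0.14. Their members Fam107a (0.36, SE 0.252) and Lifr (0.16, SE 0.165) overlapped between the groups.

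Intermediate progenitor genes lay below WT in 14 of 19 (median -0.08, or -0.04 without KO 3 and KO 4). Within litters 1 to 5 their median difference was -0.03, -0.007, -0.08, -0.35 and -0.14. Insm1, a zinc-finger gene of delaminating progenitors, was at -0.26 (SE 0.106), or -0.15 without KO 3 and KO 4. The Notch ligand gene Dll1 was at -0.18 (SE 0.0683), or -0.14 without them. Both were lower in KO than in the WT littermate in 5 of 5 litters, as 3.08% of all genes were. Insm1 was nearly level in litter 2, at 226 CPM in KO and 227 CPM in WT. Among genes of new and migrating neurons 10 of 15 lay below WT (median -0.07), and without KO 3 and KO 4 the median was 0.03 with 4 of 15 below. Tbr1, a T-box gene of early neurons, was at -0.15 (SE 0.122) with 5 and 5 libraries and at 0.02 without those 2. Deep-layer genes were divided, 10 of 18 below and 8 above (median -0.03), and so were upper-layer genes, 11 below and 7 above (median -0.03). Without KO 3 and KO 4, 7 deep-layer genes lay below and 11 above (median 0.03). For upper-layer genes these were 10 below and 8 above (median -0.03). Pou3f3 and Lhx2 led the upper-layer list. Sox5 (-0.18, SE 0.110), which acts in the development of deep-layer neurons, and Foxp2 (0.32, SE 0.191), of layer 6, led the deep-layer list. Foxp2 reached 120 and 117 CPM in KO 3 and KO 4 and 97.7 CPM in WT 2, against 62.5 to 77.7 CPM in the other 3 KO and 64.4 to 70.3 CPM in the other 4 WT libraries. Foxp2 is also a member of the diencephalon, midbrain and hindbrain list described below. That list, Foxp2 included, summed to 506, 490 and 474 CPM in KO 3, KO 4 and WT 2. In WT 3 the list summed to 259 CPM, with Foxp2 at 65.0 CPM. The part of such tissue in the Foxp2 difference was not tested.

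Area patterning genes lay below WT in 14 of 23 (median -0.13, or -0.06 without KO 3 and KO 4). Of 19 Notch pathway genes 12 lay below (median -0.07), led by Hes1 and Dll1, and of 24 Wnt pathway genes 14 did (median -0.04), led by the receptor genes Fzd8 (-0.30, SE 0.118) and Fzd1 (-0.22, SE 0.0843). Without KO 3 and KO 4, 15 Notch pathway genes (median -0.08) and 20 Wnt pathway genes (median -0.07) lay below. Axon guidance genes lay above WT in 22 of 34 (median 0.02). Nrp2, a semaphorin receptor gene, was above WT in 5 of 5 litters, as 3.69% of all genes were (211 to 238 CPM in KO, 182 to 209 CPM in WT, 0.19, SE 0.0824). The netrin receptor gene Unc5b was at 0.16 (SE 0.0825). Immediate early genes, led by Jun and Nr4a2, had 12 of 19 below WT (median -0.08). Astrocyte and oligodendrocyte genes had 11 of 17 above (median 0.10, or -0.04 without KO 3 and KO 4), with Gfap at 0.80 (SE 0.438, or 0.42 without KO 2) and the water channel gene Aqp4 at 0.52 (SE 0.298), both under 3 CPM.

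Cell cycle genes lay below WT in 28 of 30, with a median of -0.13, but the difference sat in 2 litters. The median was -0.05, -0.02, -0.31, -0.39 and 0.004 within litters 1 to 5, and -0.02 in the fit without KO 3 and KO 4. Aurka, a mitotic kinase, had 29.9 and 30.4 CPM in KO 3 and KO 4, 35.8 to 37.3 CPM in the other KO libraries and 36.9 to 45.6 CPM in WT. Foxm1, a transcription factor of mitosis genes, had 60.5 and 58.8 CPM in KO 3 and KO 4, 72.7 to 82.6 CPM in the other KO libraries and 76.5 to 89.8 CPM in WT.

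Among genes higher in KO, Cdhr1 had the smallest p. It encodes a cadherin-related protein known from photoreceptors and from the mitral and tufted cells of the olfactory bulb. It stood at 3.45, 14.6, 8.05, 8.74 and 5.27 CPM in KO, against 2.90, 2.08, 2.84, 1.88 and 2.71 CPM in WT. The WT libraries were close together, and every KO library lay above them, KO 1 by little and KO 2 by most. The mean was 8.02 ± 4.24 CPM in KO and 2.48 ± 0.472 CPM in WT (SD, n = 5 each). The log2 fold change was 1.68 (SE 0.322, adjusted p = 0.356 by edgeR), which was 1.61 without KO 3 and KO 4 and 1.35 without KO 2. Cdhr1 (Entrez 170677) lies on chromosome 14, 37077849 to 37098347. Of 8 olfactory bulb and tract genes 7 lay above WT (median 0.20, or -0.0008 without KO 3 and KO 4).

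Tfap2e, the AP-2 epsilon gene, is also known from the olfactory bulb, and KO 2 was again the highest library. It stood at 0.379, 4.55, 2.28, 2.25 and 0.544 CPM in KO and at 0.181, 0.381, 0.648, 0.389 and 0.133 CPM in WT. KO 1 and KO 5 were within the WT range, and KO 2, KO 3 and KO 4 were above it (log2 fold change 2.46, SE 0.661, adjusted p = 1 by edgeR, or 1.91 without KO 2). Mafa, a bZIP factor known from pancreatic beta cells, had 0.759, 2.27, 1.28, 1.53 and 0.851 CPM in KO and 0.544, 0.277, 0.748, 0.130 and 0.399 CPM in WT (1.65, SE 0.450, or 1.39 without KO 2). KO 2 was also the highest of the 10 libraries for Synpr, Mybpc1 and Reln. Synpr, which encodes the vesicle protein synaptoporin, had 21.7, 33.5, 23.7, 26.2 and 26.4 CPM in KO and 20.2, 21.1, 15.7, 17.6 and 21.6 CPM in WT (0.45, SE 0.119, or 0.35 without KO 2). Reln, the secreted glycoprotein of Cajal-Retzius cells, had 370, 645, 323, 315 and 409 CPM in KO and 370, 270, 241, 286 and 376 CPM in WT (0.42, SE 0.185, or 0.20 without KO 2). The part of KO 2 in these differences was not tested.

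Cntn3, a contactin of neuronal surfaces, had 8.49 to 11.6 CPM in KO and 5.82 to 7.78 CPM in WT (0.54, SE 0.147), highest in KO 3 and KO 4. Mybpc1, which encodes a myosin-binding protein (1.16, SE 0.315), and the transporter gene Abca8b (0.47, SE 0.129) were also apart between the groups. Lgi4 (1.08, SE 0.270), Popdc3 (1.26, SE 0.354) and A530072M11Rik (1.65, SE 0.479) had under 1 CPM in all 10 libraries. The last of the first 12 was Rn18s, the 18S ribosomal RNA, at 21475 CPM in KO 3 and at most 404 CPM elsewhere (5.80, SE 1.59, or 1.38 without KO 3).

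**Figure D3:**
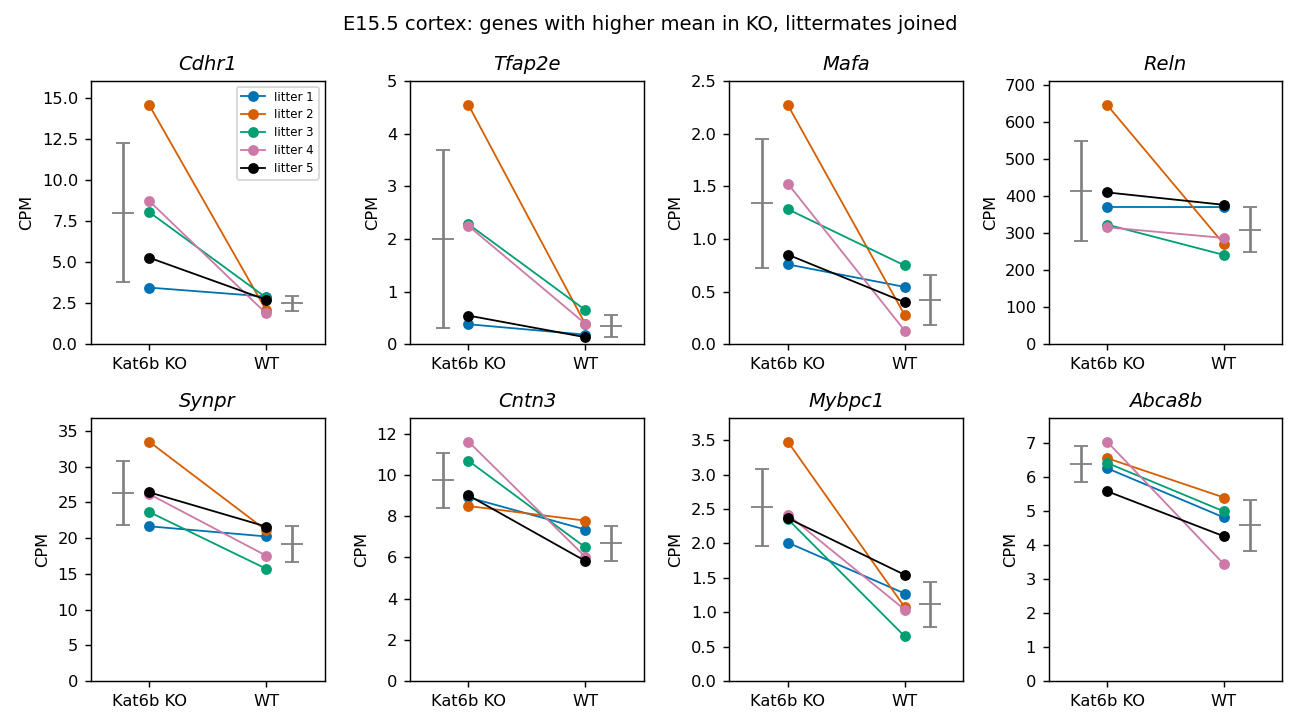
CPM of 8 genes with a higher mean in KO than in WT, in each library of E15.5 cortex, KO on the left; a line joins littermates, and grey bars give the mean ± SD of 5 libraries. Litter 2 (orange) has the highest KO point for Cdhr1, Tfap2e, Mafa, Reln, Synpr and Mybpc1, while Cntn3 and Abca8b are highest in litter 4.

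Markers of tissue around the cortex varied widely between libraries, and KO 3 and KO 4 were high for several of them. All 18 meningeal and mesenchymal markers lay above WT (median 0.67), and all 18 lay below WT without KO 3 and KO 4 (median -0.57). Their summed level was 396 and 387 CPM in KO 3 and KO 4, 96.6 to 137 CPM in the other KO libraries, 260 CPM in WT 3 and 109 to 124 CPM in the other WT libraries. The fit without KO 3 and KO 4 keeps WT 3, so its medians set the other KO libraries against a WT group with a high library. The defining collagen gene Col1a1 had 32.1 and 28.4 CPM in KO 3 and KO 4 and 0.878 to 11.7 CPM in the other 8. Dcn, a proteoglycan gene of fibroblasts, had 16.6 and 17.5 CPM there, 3.57 to 5.35 CPM in the other KO libraries, 12.1 CPM in WT 3 and 2.26 to 5.08 CPM in the other WT libraries. In bulk tissue more cells of a type and more RNA per cell cannot be told apart.

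Hem and choroid plexus genes lay above WT in 20 of 20 (median 0.48, or 0.04 without KO 3 and KO 4), with the signal genes Wnt2b (0.50, SE 0.218) and Bmp6 (0.86, SE 0.382). Ttr, the transthyretin gene that defines choroid plexus, ran from 1.07 to 466 CPM in KO and from 0.588 to 580 CPM in WT. It was above 300 CPM in KO 1, KO 3, KO 4, WT 3 and WT 4 and at most 11.1 CPM in the other 5. All 14 Cajal-Retzius genes lay above WT (median 0.23), but 7 of 14 did without KO 3 and KO 4 (median 0.04), with Calb2 at 0.54 (SE 0.252) or 0.10 and Reln at 0.42 or 0.62. Markers of diencephalon, midbrain and hindbrain lay above WT in 14 of 21 (median 0.17), but all 21 lay below without KO 3 and KO 4 (median -2.29), and they summed to 506 and 490 CPM in KO 3 and KO 4, 117 to 132 CPM in the other KO libraries, 474 CPM in WT 2, 259 CPM in WT 3 and 115 to 151 CPM in the other WT libraries. The fit without KO 3 and KO 4 keeps both WT 2 and WT 3. Tfap2b reached 33.5 CPM in WT 2 and at most 2.00 CPM elsewhere, and Hoxa2, of the hindbrain, had 0 counts in all 10 libraries.

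**Figure D4:**
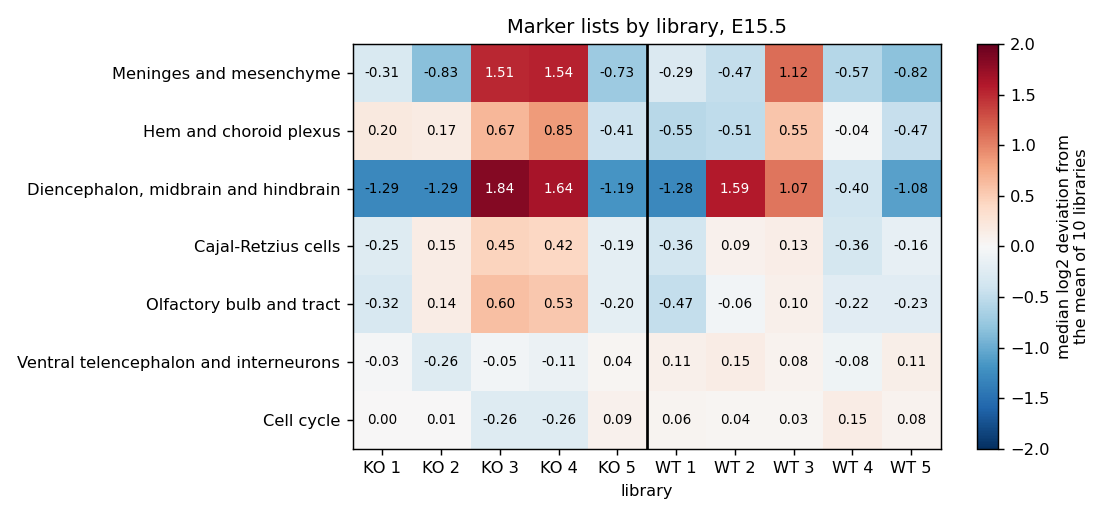
Median log2 deviation of 7 marker lists from their mean over the 10 libraries, by library, KO on the left of the black line and WT on the right. KO 3 and KO 4 are high for meninges (1.51 and 1.54), WT 3 is also high (1.12), KO 3, KO 4, WT 2 and WT 3 are high for diencephalon, midbrain and hindbrain (1.84, 1.64, 1.59 and 1.07), and cell cycle genes are low in KO 3 and KO 4 (-0.26 each).

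The other marker lists had these values. Ventral telencephalon and interneuron genes lay below WT in 18 of 22 (median -0.13, or -0.12 without KO 3 and KO 4), with the homeobox gene Gsx2 at -0.19 (SE 0.139). Their summed level was 1072 to 1366 CPM in KO and 1219 to 1425 CPM in WT. Endothelial and pericyte genes had 13 of 18 above WT (median 0.09), with Rgs5 at 0.13 (SE 0.116) and Abcc9 at 0.13 (SE 0.127). Without KO 3 and KO 4, 17 of 18 lay below (median -0.11), with Rgs5 at -0.018 and Abcc9 at 0.005. Microglial genes had 11 of 15 above (median 0.10, or -0.06 without KO 3 and KO 4). Among them Ptprc was at 0.41 (SE 0.299) and Mrc1, which also marks macrophages of the meninges, at 1.02 (SE 0.567). Of 11 tested erythroid genes 7 lay below (median -0.06, or -0.21 without KO 3 and KO 4), with Hba-a1 at -0.29 (SE 0.292). Cartilage, bone and muscle genes had 7 of 12 below (median -0.05), and the muscle factor Myod1 had 5 counts in KO and 8 in WT in all. Skin genes had 5 of 6 above (median 0.49, or 0.13 without KO 3 and KO 4), and the keratin gene Krt5 had 0 counts in KO and 6 in WT. The part of these cells in the results on cortical genes was not tested beyond the fits without KO 3 and KO 4.

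The same genes were read at E12.5, where 3 KO and 3 WT libraries of dorsal telencephalon were sequenced. These embryos came from litters 568 and 592 only. WT replicate 4 had 20418 counts from Xist and 15 from Y-linked genes, as female tissue does, while the KO libraries had more from Y-linked genes. The log2 fold changes of the lower genes at E15.5 and E12.5 were -0.47 and -0.29 (SE 0.102 at E12.5) for Nr2e1, -0.57 and -0.43 (SE 0.134) for Otx1, -0.42 and -0.33 (SE 0.124) for Sox21, and -0.40 and -0.55 (SE 0.149) for Lhx2. For Nr2e1 the difference between the ages, E15.5 minus E12.5, was -0.18 (SE 0.130, adjusted p = 1 by edgeR). Sesn2 was at -0.61 at E15.5 and 0.01 (SE 0.148) at E12.5. Cdhr1 was at 1.68 at E15.5 and 0.19 (SE 0.411) at E12.5, Synpr at 0.45 and -0.25 (SE 0.157), and Mafa at 1.65 and -0.67 (SE 0.519). None of these differences between ages passed (adjusted p = 1 by edgeR, with an unadjusted p of 0.0045 for Sesn2, 0.00249 for Synpr and 0.00375 for Mafa). These genes were chosen for a small p at E15.5, and the contrast uses the same E15.5 values. The choice alone favours a smaller difference at E12.5, so these unadjusted p are no evidence of an effect tied to age. By edgeR 0 of 16118 genes (0%) differed in their KO effect between the ages, 438 (2.72%) at an unadjusted p under 0.05, and limma-voom called 0 and DESeq2 1. That gene, Stac, which encodes an adaptor protein, was named after its values were seen: it was at 0.05 (SE 0.134) at E15.5 and -1.37 (SE 0.177) at E12.5, a difference of 1.41 (adjusted p = 0.114 by edgeR).

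**Figure D5:**
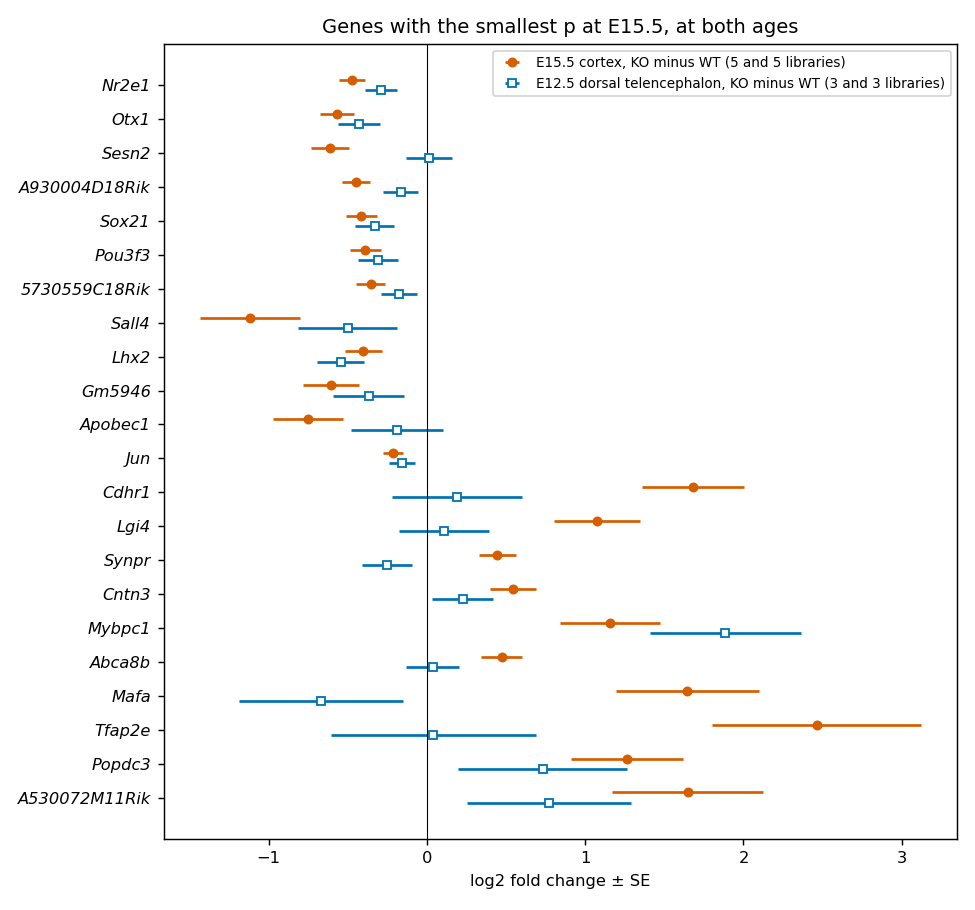
Log2 fold change of KO over WT ± SE for the 12 lower genes and 10 of the 12 higher genes with the smallest p at E15.5 in E15.5 cortex (filled circles, 5 KO and 5 WT) and E12.5 dorsal telencephalon (open squares, 3 KO and 3 WT). Nr2e1, Otx1, Sox21, Pou3f3 and Lhx2 lie below 0 at both ages, and Sesn2 and Cdhr1 lie near 0 at E12.5.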

How the data were processed

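RNA from 1 embryo per library was read as 66 bp paired ends (TruSeq kit, NextSeq500), per the labels. Base calls used bcl2fastq and reads per gene were counted with featureCounts on mm10, per the submitters' processing notes; the sources used here name no aligner, annotation, strand setting or version. The deposited values are raw counts, not normalized, in 27179 rows, of which 848 without a gene name (0.349% to 0.493% of counts, 2.00% in KO 3) were left out. Positions and promoters are from RefSeq, matched by Entrez identifier for 25271 of 26331 genes, and overlaps from GENCODE. Genes passing filterByExpr (minimum count 10, total 15) in the 16 C57BL/6 libraries were tested with edgeR 4.0.16 (R 4.3.3; TMM scaling, robust quasi-likelihood, a mean per genotype and age, 2-sided, Benjamini-Hochberg over 16118 genes, called under 0.05); the biological coefficient of variation was 0.1616. CPM use the scaled totals. SE is the absolute log2 fold change over the square root of F. Totals limit precision for genes under 1 CPM. The script was tested on simulated data.

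Replicate numbers at E15.5 are litters in the labels, so the numbers pair the samples; the correlation of littermates' deviations from the group means was 0.15, -0.11, 0.32, -0.04 and 0.39 in litters 1 to 5. Libraries are separate embryos. Alternatives were DESeq2 1.42.0, its size factors in edgeR, limma-voom 3.58.1, no filter, the litter block, sex, the meningeal level, other sample sets, ribosomal rows left out and each library left out. Gene lists are described by counts and medians. The members and lists were chosen with earlier results of these data known. Named genes are Kat6b, the 12 lower and 12 higher genes with the smallest p, genes called in a fit with all 10 libraries, and the 2 members of each list with the smallest p; some of these are not reported here. Other genes given with values were chosen after their values were seen.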

Additional observations from a re-analysis of the deposited data

Results flagged for a closer look

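Tests for a single library far from the other 4 of its group covered named genes, lists and library measures. Of 206 such tests 26 met the rule. For independent, normally distributed values about 1 of 20 would. The items tested here are not independent, since several share genes or measure ribosomal RNA. That rate is therefore no baseline for the 26. KO 3 had 7 of the 26. They were ribosomal RNA at 19.1% of counts, unnamed rows at 2.00% of counts, Rn45s at 228254 CPM, Rn18s at 21475 CPM and the RNA quality list at 5.97 (median log2 deviation from the mean of 10 libraries), Fam107a high at 1.07 CPM and Sall4 low at 0.214 CPM. KO 2 was high for Reln at 645 CPM, Mybpc1 at 3.48 CPM and Gfap at 2.47 CPM, KO 1 for Brpf1 at 72.1 CPM and KO 4 for Pax3 at 0.170 CPM.

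WT 3 was high for the meningeal list at 1.12, Dcn at 12.1 CPM and Slc6a13 at 1.85 CPM, and low for Map1b at 1580 CPM, Fzd8 at 38.8 CPM and the Notch list at -0.08 (median deviation -0.0812). WT 1 was high for Gm5946 at 10.5 CPM, the nuclear receptor list at 0.0975 and the ribosomal RNA Rn18s at 128 CPM and Rn45s at 2006 CPM, with ribosomal RNA at 0.210% of counts. WT 2 was high for Tfap2b at 33.5 CPM and Foxp2 at 97.7 CPM, and WT 4 for Wnt2b at 4.79 CPM. The part of these libraries in the differences between genotypes was not tested beyond leaving each out.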

How the results depend on the processing

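The count of genes called at E15.5, 0 in the 16-library edgeR fit, was 1 with the replicate block (litter), 2 with the 10 E15.5 libraries alone, 1 with these and the replicate block, 1 with all 32 libraries and 7 by DESeq2. It was 0 in the other 12 settings and, leaving out 1 library in turn, 0 to 0. The difference between ages had 0 calls in every setting but DESeq2, with 1 (Stac, adjusted p = 7.09e-05), and 0 to 0 with 1 library left out. Nr2e1 was called in 5 of 17 alternative settings (adjusted p 0.000619 to 1) and Otx1 in 2 of 17 (0.00541 to 1), with log2 fold changes of -0.51 to -0.39 for Nr2e1 and -0.63 to -0.45 for Otx1 over all settings. Apart from Nr2e1, the block made or ended no call in the 16-library fit.

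Signs turned as follows; the cause was not tested. Without KO 3 and KO 4, in the 16-library fit, the 10-library fit and the blocked fit without their litters (the last 2 chosen after seeing the data), Tbr1 was at 0.018, 0.021 and 0.047, Foxp2 at -0.0033, -0.00044 and -0.080, and Rgs5 at -0.018, -0.014 and -0.095. In the first 2 of these, Dcn was at -0.10 and -0.0998 and Mrc1 at -0.105 and -0.097, and in the first Slc6a13 was at -1.57 and Cdh1 at -0.39. Kat6b was at -0.010 without both replicates 5. With 1 library left out, Kat6b ran from -0.0017 (without WT 3) to 0.083, Tfap2b from -4.17 to 0.63 (without WT 2), and the difference between ages for Otx1 from -0.28 to 0.014 (without E12.5 KO 1). Low depth goes with wide intervals: Sall4, at 0.503 CPM in KO and 1.20 CPM in WT on average, had -1.79 to -0.45.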
